A study of Mus musculus with 4 samples.

Results

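Aminoacyl-tRNA synthetases are the enzymes that join each amino acid to its tRNA. The 36 genes described here are 20 that encode the synthetases of the cytosol and 16 that encode a separate mitochondrial set. They were taken from a list of symbols, by a rule that uses no measured value, though the list was drawn up with earlier results of these data known, and were matched by Ensembl identifier to rows of the count table. All 36 were found among its 47729 gene rows, and all 36 were among the 13732 genes with enough reads to be tested. Symbols are given in their older form, and newer names of the cytosolic genes add a 1, as in Aars1.

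The cells were mouse CD4 T cells from the spleen of C57BL/6 mice, for which the labels give no engineered allele, that were differentiated in culture into induced regulatory T (iTreg) cells. Both groups were cultured with TGF-β at 5 ng/mL, with IL-2 at 100 U/mL, and with neutralizing anti-IL4 and anti-IFNγ, each at 5 µg/mL. FeSO4 cells received 50 µM ferrous sulfate and Mock cells received PBS, for 4 days in each case. Each group had 2 RNA-seq libraries. The study's methods describe 2 independent experiments with a pair of libraries each, but the labels do not tie a replicate number to an experiment.

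A cell that lacks a charged tRNA stalls its ribosomes, and the uncharged tRNA activates the kinase GCN2. GCN2 and its relatives, among them the heme-regulated kinase HRI, phosphorylate the translation factor eIF2α. This raises translation of the transcription factor ATF4, whose known target genes include many cytosolic synthetases, amino acid transporters and enzymes of amino acid synthesis. Mitochondria use their own tRNAs and, for most amino acids, their own synthetases, which are encoded in the nucleus and imported. Gars and Kars each encode both the cytosolic and the mitochondrial enzyme, Eprs encodes a single protein that charges glutamate and proline tRNAs, and Farsa and Farsb encode the subunits of the phenylalanine enzyme.

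The 4 libraries held between 35183187 and 40859178 reads in gene rows. Values are given as CPM, the count scaled to a fixed library size, after TMM scaling, and 3 reads, the limit that a count of 0 allows, correspond to 0.0717 to 0.0876 CPM. The T cell genes Cd3e (303 to 346 CPM) and Cd4 (605 to 683 CPM) were high in all 4 libraries. Foxp3, the transcription factor that defines Treg cells, was lower in both FeSO4 libraries (375 and 471 CPM) than in the Mock libraries (586 and 693 CPM), whereas the Treg genes Il2ra (1390 and 1590 CPM in Mock, 1480 and 1550 in FeSO4) and Ctla4 (135 and 147, 138 and 179) overlapped, as did the sum over the 5 T cell and iTreg markers (3050 and 3340, 2990 and 3230). Summed over the 5 B cell markers the level was 2.59 to 7.21 CPM, over the 3 NK cell markers 0.513 to 1.23 CPM, with Ncr1 and Klrb1c at 0 reads, and over the 2 CD8 T cell markers 9.04 to 11 CPM. The 6 myeloid markers summed to more in FeSO4 (115 and 118 CPM) than in Mock (98.0 and 87.9 CPM), nearly all of it Cst3. The 3 erythroid markers also summed to more in FeSO4 (37.6 and 32.7 CPM) than in Mock (25.2 and 19.7 CPM), nearly all of it Hba-a1. Several other markers had most of their reads in Mock replicate 1. Lyz2 had 164 reads there and Igkc 156, against 0 to 8 reads in the other libraries. Csf1r (7 reads there), Cd14 (4) and Hbb-b1 (12) were at 0 reads in every other library. The part of the cells' composition in the results below was not tested, and in bulk RNA a change in the number of cells of a type and a change in RNA per cell cannot be told apart.

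The first question was whether the cytosolic synthetases as a group differed between FeSO4 and Mock. All 20 cytosolic genes had a positive log2 fold change, and 11 of the 20 rose in FeSO4 at an adjusted p under 0.05 (edgeR's quasi-likelihood test, Benjamini-Hochberg adjustment over all genes tested), where 10.9% of all genes tested rose. By the same test 0 of the 20 fell, where 9.17% of all genes tested fell, and 0 had a lower level at an unadjusted p under 0.05. The 11 that rose were Aars, Cars, Dars, Gars, Hars, Iars, Mars, Nars, Rars, Tars and Wars. The changes were small, with a median log2 fold change of 0.22 over the 20 genes and a range from 0.003 (Qars) to 0.47 (Cars), against a median of -0.001 over all genes tested. The study's threshold (unadjusted p under 0.05 and a log2 fold change of at least 0.5) was applied here to edgeR's p. The study took its p from the Wald test of DESeq2. At that threshold 0 of the 20 passed, where 4.67% of all genes tested passed as higher.

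In 18 of the 20 cytosolic genes both FeSO4 libraries lay above both Mock libraries, an arrangement found in 30.1% of all genes tested. The 2 whose groups overlapped were Qars and Vars. None of the 20 had both FeSO4 libraries below both Mock libraries, an arrangement found in 29.4% of all genes tested. FeSO4 replicate 1 was above FeSO4 replicate 2 in 17 of the 20 genes, and in 13 of the 16 mitochondrial genes, so the size of a change differed between the FeSO4 libraries. Mock replicate 1 was above Mock replicate 2 in 7 of the 20 and in 8 of the 16. The share over all genes tested was not computed. With 1 library left out, the median log2 fold change of the 20 genes was 0.17 without FeSO4 replicate 1 and 0.199 without Mock replicate 1. It was 0.239 without Mock replicate 2 and 0.265 without FeSO4 replicate 2. Fewer of the 20 were called in each of these fits, fewest without FeSO4 replicate 1, and Cars, Hars and Nars kept their call in each. Each of these fits also called fewer of all genes tested as higher. Scaling by library size alone, which lowered the median of all genes tested to -0.07, left 5 called (Aars, Cars, Hars, Nars and Rars), with negative values for Eprs, Qars and Vars. In that fit 980 of 13732 genes tested rose, against 1491 in the main fit. Testing all genes with at least 1 count left 3 called (Aars, Cars and Nars), where 524 of the 22164 genes then tested rose.

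**Figure D1:**
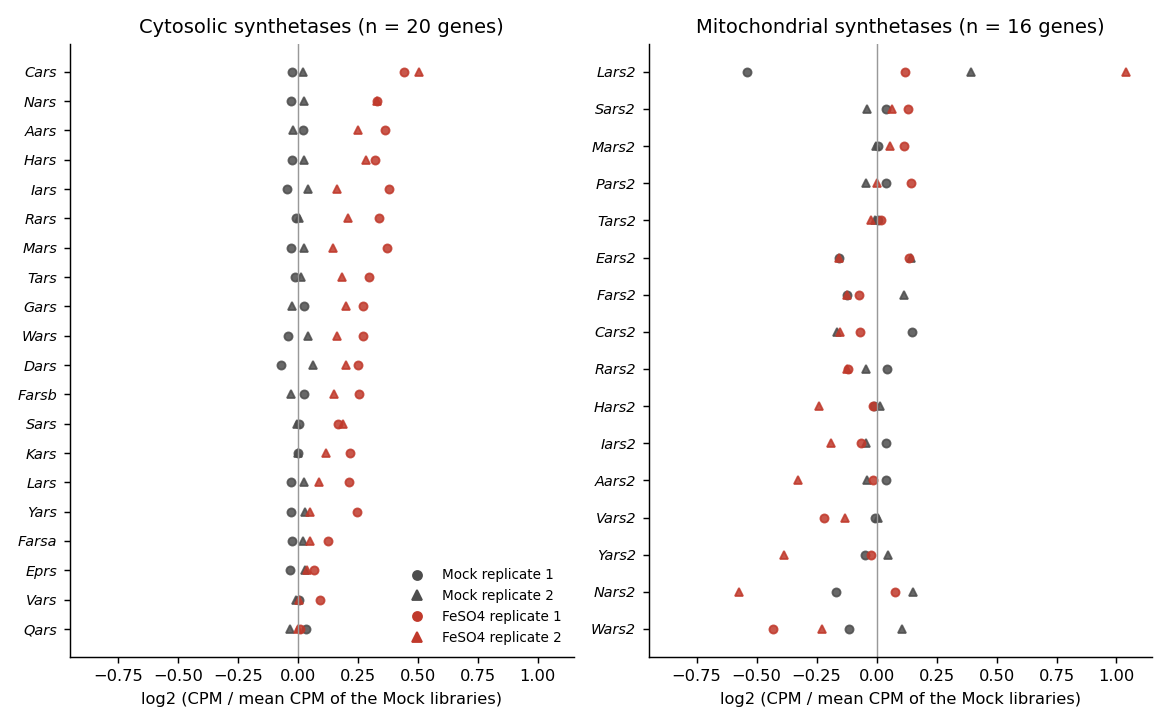
Level of each synthetase gene in each of the 4 libraries, as the log2 of its CPM over the mean CPM of the Mock libraries, with cytosolic genes on the left and mitochondrial genes on the right, ordered by log2 fold change. In 18 of the 20 cytosolic genes both FeSO4 points lie to the right of both Mock points, which holds for 2 of the 16 mitochondrial genes, and the 4 points of Lars2 are spread more widely than those of any other gene shown.

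Cars, which charges cysteine tRNA (ENSMUSG00000010755, chr7:143557230-143600090 in GRCm38.p6), had the largest change among the cytosolic genes. It was at 35.4 and 36.5 CPM in Mock and at 48.9 and 51.1 CPM in FeSO4. The groups were well apart, and its log2 fold change was 0.47 ± 0.085 (SE, adjusted p = 0.000886), an increase of 38.9%. Cars was called under each of the 13 alternative fits, as was Nars.

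Nars, the asparagine enzyme (ENSMUSG00000024587), was at 128 and 133 CPM in Mock and at 164 CPM in both FeSO4 libraries. Its log2 fold change was 0.33 ± 0.065 (adjusted p = 0.00187). The groups did not overlap, and the FeSO4 libraries differed less than the Mock libraries did.

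Aars, the alanine enzyme (ENSMUSG00000031960, chr8:111027778-111055569), was at 172 and 167 CPM in Mock and at 218 and 202 CPM in FeSO4, a log2 fold change of 0.31 ± 0.066 (adjusted p = 0.00326). Hars, the histidine enzyme (ENSMUSG00000001380), was at 87.2 and 90.3 CPM in Mock and at 111 and 108 CPM in FeSO4, a log2 fold change of 0.30 ± 0.069 (adjusted p = 0.00529). Each of them was called under 12 of the 13 alternatives. In both genes the gap between the groups exceeded the distance between libraries of a group.

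Iars, the isoleucine enzyme (ENSMUSG00000037851, chr13:49682130-49734267), was at 77.5 and 82.4 CPM in Mock and at 104 and 89.6 CPM in FeSO4, a log2 fold change of 0.28 ± 0.081 (adjusted p = 0.0228). Rars, the arginine enzyme (ENSMUSG00000018848, chr11:35808381-35834528), was at 91.3 and 92.2 CPM in Mock and at 116 and 106 CPM in FeSO4, a log2 fold change of 0.27 ± 0.072 (adjusted p = 0.0133). In both, FeSO4 replicate 1 was the higher of the FeSO4 libraries. Without it neither was called, at 0.17 for Iars (adjusted p = 0.327) and 0.21 for Rars (adjusted p = 0.176), and without Mock replicate 1 Iars was not called either (0.23, adjusted p = 0.1). Iars has a near-identical copy on chromosome 1: 3 matches there at 95% identity or more together covered 61.3% of its transcript (NCBIM37), so reads may have been lost to or gained from that copy.

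The other 5 that rose were Mars (methionine), Tars (threonine), Gars (glycine), Wars (tryptophan) and Dars (aspartate), with log2 fold changes from 0.22 to 0.27 and adjusted p from 0.0162 to 0.04. Gars, for example, was at 177 and 171 CPM in Mock and at 210 and 200 CPM in FeSO4. Dars was at 92.9 and 102 CPM in Mock and at 116 and 112 CPM in FeSO4. Of the 5, Dars kept its call least often, under 7 of the 13 alternatives, and the others under 9. Without FeSO4 replicate 1 none of the 5 was called, with Mars at 0.16 (adjusted p = 0.36), and Dars was at 0.15 (adjusted p = 0.238) without Mock replicate 1.

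The remaining 9 cytosolic genes did not pass. Sars, the serine enzyme, was at 183 and 182 CPM in Mock and at 205 and 208 CPM in FeSO4. Its groups were apart, its log2 fold change was 0.18 ± 0.062, and its adjusted p of 0.0503 missed the threshold narrowly and 4 of the 13 alternatives called it. Its adjusted p over the alternatives ran from 0.0214 to 0.217. Farsb (0.20), Kars (0.17), Lars (0.15) and Yars (0.15) had log2 fold changes of similar size with adjusted p from 0.0794 to 0.22.

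Farsa, Eprs, Vars and Qars had the smallest differences. Qars, the glutamine enzyme, was at 177 and 169 CPM in Mock and at 174 and 173 CPM in FeSO4, a log2 fold change of 0.003 ± 0.064. Vars, the valine enzyme, was at 416 and 412 CPM in Mock and at 441 and 415 CPM in FeSO4, a log2 fold change of 0.05 ± 0.060. Neither differed between the groups by more than its libraries did within a group. Eprs was at 0.06 ± 0.064 and Farsa, the catalytic subunit of the phenylalanine enzyme, at 0.09 ± 0.072.

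**Figure D2:**
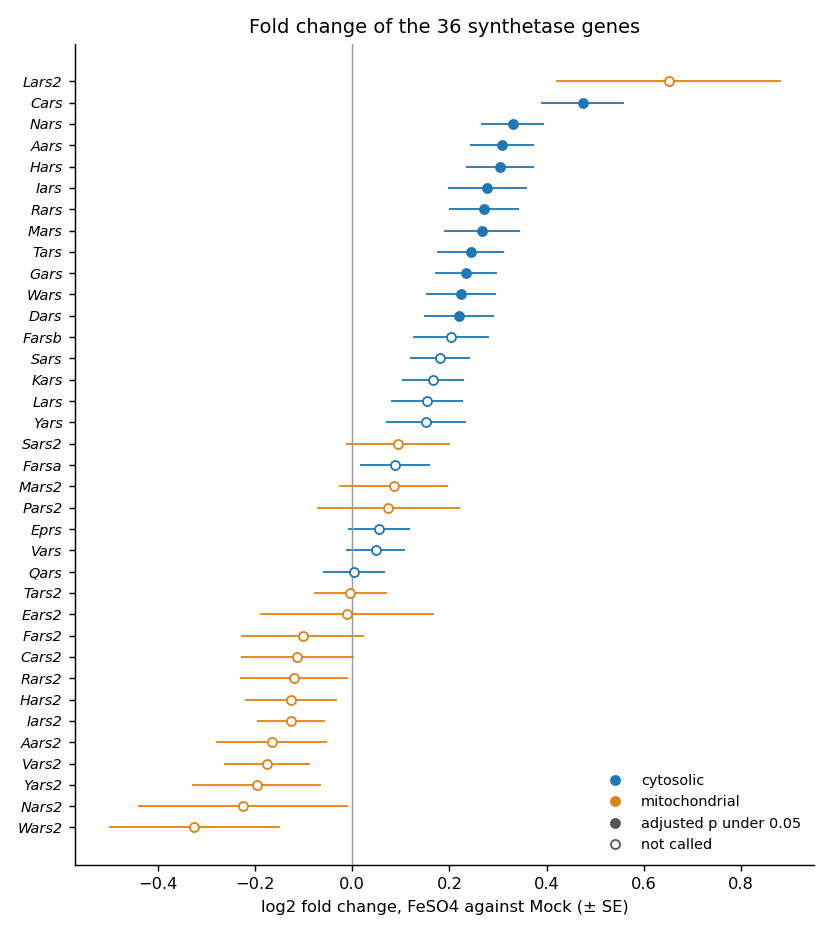
Log2 fold change of FeSO4 against Mock for each of the 36 genes, with bars of 1 standard error from the edgeR fit, cytosolic genes in blue, mitochondrial genes in orange, and filled points for an adjusted p under 0.05. The 11 filled points are all cytosolic, from 0.22 (Dars) to 0.47 (Cars), and the open point at 0.65 is Lars2.

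Cytosolic synthetases fall into groups by structure and assembly. In mammals 8 of the 20 genes (Dars, Eprs, Iars, Kars, Lars, Mars, Qars and Rars) encode enzymes of the multisynthetase complex, a large assembly held together by scaffold proteins. Over all genes tested 10.9% rose. Of these 8, 4 rose, and their median log2 fold change was 0.19. Of the 12 outside the complex, 7 rose, and their median was 0.23. The synthetases also belong to 2 unrelated structural classes. Of the 9 cytosolic genes of class I, 5 rose with a median of 0.22, and of the 10 of class II, 6 rose with a median of 0.23. Eprs holds an enzyme of each class and was left out of that count. The difference between these subgroups was not tested.

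The scaffolds of the complex are Aimp1, Aimp2 and Eef1e1, the last of which encodes AIMP3. Of these 3 genes 2 rose, where 10.9% of all genes tested rose. Eef1e1 was at 31.6 and 28.2 CPM in Mock and at 42.1 and 37.2 CPM in FeSO4, a log2 fold change of 0.40 ± 0.099 (adjusted p = 0.00811). Aimp1 was at 74.5 and 75.5 CPM in Mock and at 87.6 and 92.3 CPM in FeSO4, a log2 fold change of 0.26 ± 0.072 (adjusted p = 0.0166). Aimp2 was at 26.3 and 23.2 CPM in Mock and at 29.2 and 26.8 CPM in FeSO4, with an adjusted p of 0.258. In all 3 the FeSO4 libraries lay above the Mock libraries, as in 30.1% of all genes tested. The call of Eef1e1 was lost without Mock replicate 2 (adjusted p = 0.0651), without FeSO4 replicate 1 (0.101) and when all genes with at least 1 count were tested (0.0861). That of Aimp1 was lost without Mock replicate 1 (0.0558), without FeSO4 replicate 2 (0.138), with library size only (0.0631) and when all genes with at least 1 count were tested (0.0835).

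The second question was whether the mitochondrial synthetases differed between FeSO4 and Mock. Of the 16 genes, edgeR called 0 in either direction, as did DESeq2 and limma-voom, where 10.9% of all genes tested rose and 9.17% fell, shares that would come to only 1 or 2 of 16 genes. Lars2 was called under 4 of the 13 alternatives, and the other 15 under none. At an unadjusted p under 0.05, 1 was higher (Lars2) and 0 were lower. The log2 fold change was negative in 12 of the 16 and positive in 4 (Lars2, Sars2, Mars2 and Pars2), with a median of -0.12. Without FeSO4 replicate 2 the median was -0.01 and 7 of the 16 were positive, so the median depended on that library. Both FeSO4 libraries lay below both Mock libraries in 5 of the 16 genes (Hars2, Iars2, Rars2, Vars2 and Wars2), against 29.4% of all genes tested, and above them in 2 (Mars2 and Sars2), against 30.1%. The standard errors were larger than for the cytosolic genes, with a median of 0.12 against 0.07 on the log2 scale.

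Wars2, the mitochondrial tryptophan enzyme, had the lowest log2 fold change, -0.32 ± 0.176 (adjusted p = 0.217). It was at 8.01 and 9.33 CPM in Mock and at 6.42 and 7.4 CPM in FeSO4. Nars2, the asparagine enzyme, was at 6.36 and 7.94 CPM in Mock and at 7.53 and 4.81 CPM in FeSO4, so that its FeSO4 libraries enclosed one Mock library and its log2 fold change of -0.22 ± 0.216 (adjusted p = 0.513) turned positive when FeSO4 replicate 2 was left out. Both genes were low, with 220 to 390 reads per library for Wars2 and 178 to 332 for Nars2.

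Vars2 was at 38.6 and 39.0 CPM in Mock and at 33.3 and 35.4 CPM in FeSO4, a log2 fold change of -0.17 ± 0.089 (adjusted p = 0.19). Iars2 was at 142 and 134 CPM in Mock and at 132 and 121 CPM in FeSO4, a log2 fold change of -0.13 ± 0.070 (adjusted p = 0.223). In both genes the FeSO4 libraries lay below the Mock libraries by a margin that the test did not call. Exons of Iars2 overlap those of Rab3gap2 on the opposite strand over 2018 of 8885 bases, the largest overlap among the 36 genes, and with the strand setting unknown reads from there cannot be told apart. Tars2, in contrast, was level, at 65.2 and 64.7 CPM in Mock and at 65.7 and 63.9 CPM in FeSO4. Aars2 and Yars2 (-0.17 and -0.20) had overlapping groups, and Ears2 (-0.01), Fars2 (-0.10) and Cars2 (-0.11) changed sign when single libraries were left out.

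Lars2, the mitochondrial leucine enzyme (ENSMUSG00000035202, chr9:123366927-123462675), stood apart from the other 15. It had 12500 and 24553 reads in Mock and 16634 and 34038 reads in FeSO4, or 308, 587, 486 and 920 CPM. In each group replicate 2 was nearly double replicate 1, and the groups overlapped. The log2 fold change was 0.65 ± 0.231 (adjusted p = 0.0561), and by edgeR's p Lars2 was the 1 synthetase gene past the study's threshold. By DESeq2, the study's own test, its unadjusted p was 0.311, which does not pass. In fits that left out no library the adjusted p of Lars2 ran from 2.45e-08 to 0.572 (DESeq2). The lowest came from pairing the libraries by replicate number, which the labels do not establish. With at least 10 counts required in every library the adjusted p of Lars2 was 0.0363. Its value depended on single libraries: it was 1.19 without Mock replicate 2 (adjusted p = 0.001), 1.04 without FeSO4 replicate 1 (adjusted p = 7.12e-08), 0.25 without Mock replicate 1 (adjusted p = 0.389) and 0.12 without FeSO4 replicate 2 (adjusted p = 0.631). A stretch of 398 bases in the 3′ untranslated region of its transcript, bases 3009 to 3406 of 3881, matched 5 other places in the genome at 95% identity or more over at least 100 bases (NCBIM37). The part of reads from such copies in the Lars2 count was not tested.

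Some steps of mitochondrial tRNA charging use enzymes other than synthetases. Glutamine is made on the tRNA by an amidotransferase whose subunits include Qrsl1 and Gatc, and the methionine on the initiator tRNA is formylated by Mtfmt after charging. By edgeR 0 of these 3 genes were called, and 0 had an unadjusted p under 0.05, which at the 10.9% and 9.17% of all genes tested that rose and fell says little about them. Mtfmt was at 20.5 and 19.5 CPM in Mock and at 23.7 and 21.3 CPM in FeSO4, a log2 fold change of 0.17 ± 0.111. Qrsl1 was at 0.10 and Gatc at -0.07.

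In expression level, compared per kilobase of transcript, the cytosolic genes stood above the mitochondrial genes in Mock cells. The median over the 20 cytosolic genes was 43.6 CPM per kb, with a range from 11.2 (Cars) to 102 (Vars). The median over the 16 mitochondrial genes was 9.84 CPM per kb, with a range from 1.89 (Nars2) to 115 (Lars2), and without Lars2 the highest was Tars2 at 25.9. Vars (102 ± 0.669, SD, n = 2), Sars (97.7 ± 0.478) and Kars (88.6 ± 0.236) led the cytosolic genes. Cars, which had the largest rise, was the lowest of them. Several neighbours in the order did not differ beyond their spread, among them Dars (43.7 ± 2.95) and Rars (43.5 ± 0.299), and Wars2 (1.97 ± 0.211) and Nars2 (1.89 ± 0.296).

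**Figure D3:**
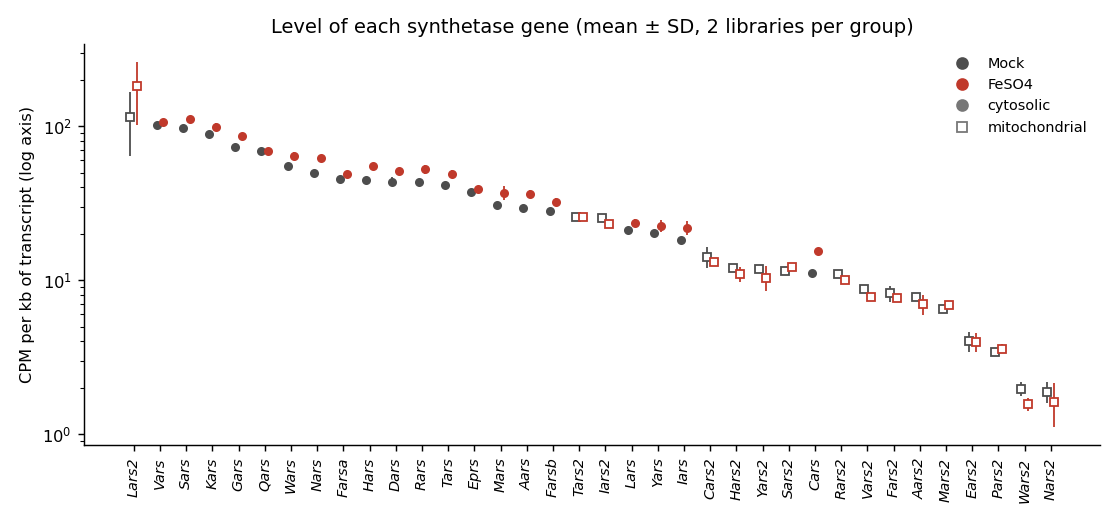
Mean level of each synthetase gene in CPM per kilobase of its GENCODE M1 transcript, on a log axis, in Mock and FeSO4, with bars of 1 SD over 2 libraries, circles for cytosolic and squares for mitochondrial genes. Lars2 leads with the widest bars, the cytosolic genes run from 102 (Vars) down to 11.2 (Cars) in Mock, and the lowest 9 genes are all mitochondrial.

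For most amino acids a cytosolic and a mitochondrial gene form a pair with the same chemical task. Dividing the counts of the partners within a library removes the scaling between libraries, so the ratio does not depend on how library size was set. Of 17 such pairs, the ratio of cytosolic to mitochondrial reads was above both Mock libraries in both FeSO4 libraries in 14, below in 0 and overlapping in 3 (Eprs with Ears2, Eprs with Pars2, and Lars with Lars2). Among single genes, 30.1% of those tested had both FeSO4 libraries above and 29.4% had both below, and the share among ratios of other gene pairs was not computed. Pairs that share Eprs or Fars2 are not independent of each other. The log2 fold change of the cytosolic partner was the larger in 15 pairs, and the median difference was 0.30.

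The pair for alanine had 6.39 and 6.53 reads of Aars for each read of Aars2 in Mock and 8.39 and 9.66 in FeSO4. The pair for cysteine went from 1.22 and 1.56 in Mock to 1.96 and 2.17 in FeSO4, and the pair for tryptophan from 12.1 and 11 to 18.9 and 15.2. In each of these pairs the cytosolic gene was higher and the mitochondrial gene lower in fold change. The pair for serine barely separated, at 8.35 and 8.76 in Mock and 8.8 and 9.35 in FeSO4.

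Hars and Hars2, the histidine pair, lie head to head, their exons overlap by 195 bases on opposite strands, and their proteins share 70.5% of aligned residues, the highest identity among the 17 pairs (lowest 22.9%). The ratio of Hars to Hars2 reads was 2.19 and 2.23 in Mock and 2.81 and 3.17 in FeSO4, without overlap. The strand setting of the counting was not given in the sources used here, so reads from the overlap cannot be assigned to either gene with certainty. Hars had a log2 fold change of 0.30 and Hars2 of -0.13.

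Summed over all 20 genes, cytosolic synthetases made up more of the reads in FeSO4 (3018 and 2856 CPM) than in Mock (2576 and 2603 CPM). The mitochondrial genes without Lars2 summed to slightly less in FeSO4 (453.4 and 419.8 CPM) than in Mock (469.6 and 461.2 CPM). With Lars2 the mitochondrial genes summed to 777.4 and 1048 CPM in Mock and to 938.7 and 1339 CPM in FeSO4, with overlapping groups. Without Lars2 there were 5.49 and 5.64 cytosolic reads for each mitochondrial read in Mock and 6.66 and 6.8 in FeSO4, a difference of 0.27 on the log2 scale. The groups did not overlap. The exact two-sided permutation test over the 4 libraries gave p = 0.333, the smallest that 2 libraries against 2 can give, so the test cannot decide the question. Leaving out Lars2 was not among the planned comparisons. With Lars2 included, the ratio was 3.31 and 2.48 in Mock and 3.21 and 2.13 in FeSO4. The difference was then -0.13 on the log2 scale, and the groups overlapped (exact permutation p = 0.667).

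**Figure D4:**
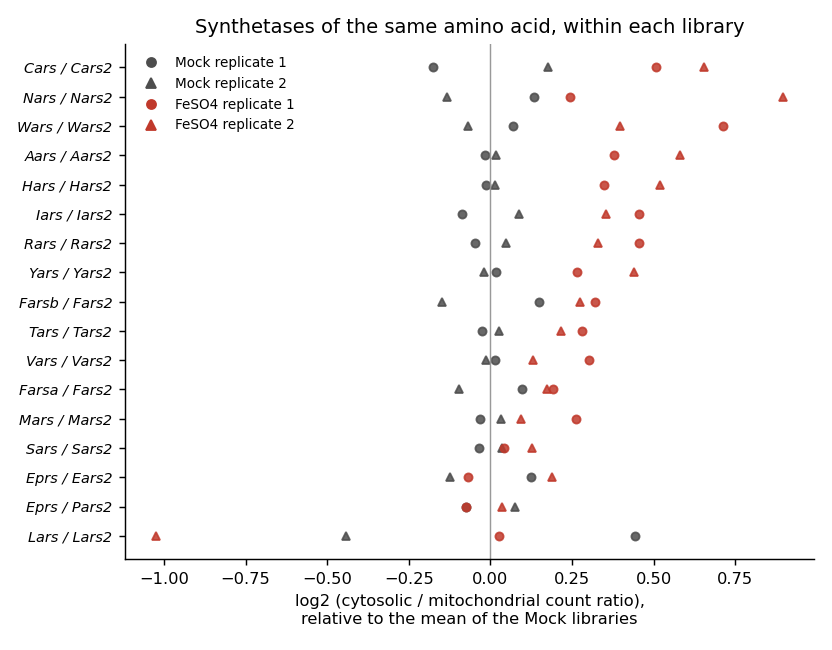
Ratio of cytosolic to mitochondrial read counts for 17 pairs of synthetase genes of the same amino acid in each library, on the log2 scale and relative to the mean of the Mock libraries. Both FeSO4 points lie to the right of both Mock points in 14 pairs, and the Lars and Lars2 pair at the bottom has the widest spread.

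Because ATF4 acts on many cytosolic synthetase genes, ATF4 itself and its known targets other than synthetases were read beside them. Of 27 listed genes 25 were tested, of which 11 rose and 2 fell, where 10.9% of all genes tested rose and 9.17% fell, so the number that fell was near the background. The median log2 fold change was 0.20, close to the 0.22 of the cytosolic synthetases. The largest changes exceeded those of any cytosolic synthetase. Asns, which makes asparagine, the amino acid that Nars loads, was at 4.07 and 6.03 CPM in Mock and at 15.6 and 20.1 CPM in FeSO4, a log2 fold change of 1.82 ± 0.186 (adjusted p = 3.86e-06). Trib3, a pseudokinase that feeds back on ATF4, was at 26.5 and 25.0 CPM in Mock and at 49.5 and 60.9 CPM in FeSO4. Atf4 mRNA was at 128 and 121 CPM in Mock and at 181 and 173 CPM in FeSO4, a log2 fold change of 0.51 ± 0.067 (adjusted p = 5.49e-05). For each of these genes the FeSO4 libraries lay well above the Mock libraries.

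Slc3a2 and Slc7a5, the chains of a transporter of large neutral amino acids, rose by 0.34 and 0.20 on the log2 scale, and the serine pathway enzyme Psat1 by 0.48. Its neighbours Phgdh (0.14, adjusted p = 0.207) and Psph (0.07, adjusted p = 0.623) were not called. Ddit4 and Aldh18a1 fell, by 0.27 (adjusted p = 0.012) and 0.26 (adjusted p = 0.0109). The number of ATF4 list genes that fell was 0 when all genes with at least 1 count were tested. It also dropped without Mock replicate 2, without FeSO4 replicate 1 or without FeSO4 replicate 2. Ddit3, which encodes CHOP, was at 14.4 CPM in both Mock libraries and at 10.5 and 12.6 CPM in FeSO4, a log2 fold change of -0.31 ± 0.139 (adjusted p = 0.131). Ddit3 shares 68 exon bases with Mars on the opposite strand, and Mars rose.

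**Figure D5:**
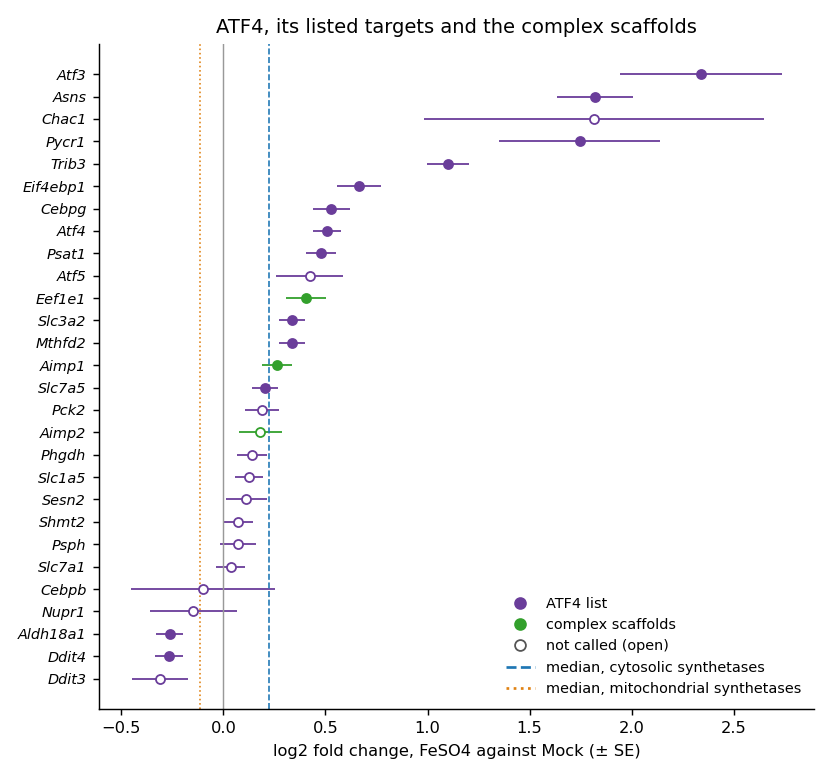
Log2 fold change of FeSO4 against Mock, with bars of 1 standard error, for the 25 tested genes of the ATF4 list and the 3 scaffold genes of the multisynthetase complex, filled where the adjusted p was under 0.05, with lines at the medians of the cytosolic (0.22) and mitochondrial (-0.12) synthetases. The list runs from -0.31 (Ddit3) to 2.34 (Atf3), and its filled points lie on both sides of 0.

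Of the 9 genes listed for the eIF2α arm, 1 rose and 1 fell, shares close to the 10.9% and 9.17% of all genes tested, so the counts say nothing about the arm. Eif2s1, which encodes eIF2α, was at 133 and 132 CPM in Mock and at 167 and 160 CPM in FeSO4, a log2 fold change of 0.30 ± 0.065 (adjusted p = 0.0039). Gcn1l1, whose product is needed for GCN2 activity on ribosomes, was at 192 and 200 CPM in Mock and at 177 and 163 CPM in FeSO4, a log2 fold change of -0.21 ± 0.067 (adjusted p = 0.0374). That call was lost without Mock replicate 2 (adjusted p = 0.14), without FeSO4 replicate 1 (0.0505), without FeSO4 replicate 2 (0.332) and when all genes with at least 1 count were tested (0.149). Ppp1r15b, which encodes a subunit of the phosphatase that acts on eIF2α, was at 138 CPM in both Mock libraries and at 151 CPM in both FeSO4 libraries (log2 fold change 0.13, adjusted p = 0.168). The mRNA of the kinases was not called, with a log2 fold change of -0.08 for Eif2ak1 (HRI) and 0.15 for Eif2ak4 (GCN2). Their activity was not measured here.

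Charged tRNAs are handed to the ribosome by elongation factors. Over all genes tested 10.9% rose and 9.17% fell. Of the 6 cytosolic elongation genes listed 3 rose (Eef1d, Eef1g and Eef1a1, with log2 fold changes from 0.20 to 0.27) and 1 fell. The one that fell was Eef2k, the kinase that inhibits the elongation factor Eef2, at 32.5 and 36 CPM in Mock and at 24.2 and 23.7 CPM in FeSO4, a log2 fold change of -0.52 ± 0.100 (adjusted p = 0.00153). Of the 10 mitochondrial translation factors 0 rose, also at an unadjusted p under 0.05, and 1 fell, close to the background share. The one that fell was Guf1 (-0.33 ± 0.112, adjusted p = 0.0487), a call that was lost with DESeq2 (0.0768), with limma-voom (0.0525), when all genes with at least 1 count were tested (0.117) and with any library left out (adjusted p 0.111 to 0.246). Gfm2 (0.14, adjusted p = 0.341) and Mtrf1 (0.33 ± 0.273, adjusted p = 0.44) had the next smallest p. The median log2 fold change was 0.18 over the cytosolic elongation genes and 0.007 over the mitochondrial factors, and the difference between these lists was not tested. Of 6 other synthetase-like and tRNA-charging genes, none was called, and Tarsl2 had the largest difference, -0.31 ± 0.131 (adjusted p = 0.11), ahead of Dtd1 (0.17, adjusted p = 0.507) and Prorsd1 (-0.09, adjusted p = 0.737) by p.

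The promoters of the members were read for sequence shared with ATF4 targets. RefSeq promoter windows (GRCm38.p6, 250 bases before to 50 after the start of the gene) were found for 13 cytosolic and 14 mitochondrial genes, and not for Cars, Hars, Lars, Nars, Rars, Vars, Wars, Hars2 and Pars2. Windows were searched on both strands for TGATGNAA, the core letters of the C/EBP-ATF response element that ATF4 binds. It was in 5 of the 13 cytosolic windows (Aars, Gars, Iars, Tars and Yars), in 0 of the 14 mitochondrial windows and in 9 of 24 windows of the ATF4 list, against 4.51% of 27025 genes. Of these 5 genes 4 rose in FeSO4 and Yars did not pass, and of the 8 cytosolic genes whose window lacks the letters 2 rose (Dars and Mars), where 10.9% of all genes tested rose. Cars, Hars, Nars, Rars and Wars also rose but had no window, so they are outside this comparison. The difference between genes with and without the letters was not tested. In 3 of the 5 genes with a match it lay before the start. These stretches are shown 5′ to 3′ on the strand of the gene, with the match in capitals, which here reads on the opposite strand.
Aars, chr8:111033710-111033757, plus strand: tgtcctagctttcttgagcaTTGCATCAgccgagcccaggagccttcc
Gars, chr6:55037951-55037998, plus strand: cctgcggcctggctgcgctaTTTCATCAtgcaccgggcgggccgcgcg
Tars, chr15:11399659-11399693, minus strand: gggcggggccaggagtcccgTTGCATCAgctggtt

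These matches begin 112, 30 and 15 bases before the start in Aars, Gars and Tars, and the start that RefSeq's window uses for Aars lies inside the span of the gene given above. The same windows were searched for the E-box CACGTG, a palindrome bound by Myc and other factors. It was in 4 of the 13 cytosolic windows (Aars, Farsb, Iars and Tars) and in 1 of the 14 mitochondrial windows (Ears2), against 8.09% of all genes in the table. The E-boxes of Farsb and Iars, which begin 39 and 69 bases before the start, are shown as those of genes not printed above.
Farsb, chr1:78488911-78488956, minus strand: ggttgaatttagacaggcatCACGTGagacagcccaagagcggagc
Iars, chr13:49682041-49682086, plus strand: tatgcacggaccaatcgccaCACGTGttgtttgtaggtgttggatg

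Iars rose in FeSO4, and Farsb, with a log2 fold change of 0.20, did not pass (adjusted p = 0.0794). A match is a run of letters and not a measured binding site, and the windows of the 9 genes listed as unmatched were not read.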

How the data were processed

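The strand setting and annotation of the RNA-seq counts were not given in the sources used here. The deposited table holds raw, whole-number counts per Ensembl gene for each of the 4 libraries, which the authors did not normalize. Per the labels, the submitters' processing notes name mm10, Trim Galore 0.6.7, STAR 2.7.9a and featureCounts, whereas the study's methods name STAR on mm9 and DESeq, and the closing rows of unassigned reads (ambiguous, not unique) are laid out as HTSeq-count writes them. These rows held 3.78 to 3.91% ambiguous reads, 4.27 to 4.62% reads with several alignments and 4.36 to 6.03% reads without a feature, and were left out. Genes with near-identical copies can therefore be under-counted.

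Groups came from the labels. Genes were kept by filterByExpr (13732 genes with 99.95% of counts). After TMM scaling they were compared in edgeR 4.0.16 under R 4.3.3 (quasi-likelihood F test, FeSO4 against Mock, Benjamini-Hochberg adjustment over all genes kept, called under 0.05). The newer quasi-dispersion (legacy set to FALSE) was used, to process the counts as in earlier work on these data. The version's default had been run first and is given as an alternative. SE is the log2 fold change divided by the square root of F. With 2 libraries per group, p-values rest on the spread between these libraries. edgeR moderates that spread over all genes, so a p-value does not rest on the gene's own libraries alone. Replicates differed by more than sampling noise (chi-square per degree of freedom 8.85 in Mock, 7.25 in FeSO4). Floors cover counting error only.

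Levels per kilobase used GENCODE M1 transcripts, copies were sought with BLAST 2.17.0 in NCBIM37, proteins translated from M1 transcripts were aligned with Biopython 1.88, and coordinates and promoters are RefSeq's for GRCm38.p6. The fit was tested on simulated data. Alternatives were DESeq2 1.42.0, limma 3.58.1 (voom), other scalings and filters, a replicate block and each library left out. The members, gene lists, motifs and tests were chosen with earlier results of these data known. All members are named, with full statistics for the 6 largest called changes, and of each other list the 3 genes of smallest p and those whose role bears on charging. Genes named beyond that rule were chosen after their values were seen. The alternatives for the ATF4 list and other pathway genes were also added then.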

Additional observations from a re-analysis of the deposited data

How the results depend on the processing

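The main count of 11 cytosolic genes higher in FeSO4 was 10 to 12 with upper quartile scaling, the size factors of DESeq2 in edgeR, a minimum of 10 counts in every library, DESeq2, limma-voom and, chosen after seeing the data, edgeR's legacy dispersion. It was 5 with library size only, where 980 of 13732 genes tested rose. When all genes with at least 1 count were tested it was 3, where 524 of 22164 rose. At the study's threshold, applied to edgeR's p, it was 0. With a library left out it was lower than 11 in each fit, and fewer of all genes tested rose too. The count of 0 cytosolic and 0 mitochondrial genes lower held in every alternative run. The count of 0 mitochondrial genes higher became 1 (Lars2) with the minimum of 10 counts, with the replicate block and at the study's threshold, and was 0 to 1 with a library left out. ATF4 list genes lower, 2 in the main fit, were 0 with all genes with at least 1 count and 0 at the study's threshold, and 1 to 2 with a library left out. The median log2 fold change of the cytosolic genes ran from 0.157 (library size only) to 0.265 (without FeSO4 replicate 2), and that of the mitochondrial genes from -0.181 (library size only) to -0.112 (limma-voom), and from -0.14 to -0.012 with a library left out, the latter without FeSO4 replicate 2. The cause was not tested.

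Values near 0 changed sign: Qars was -0.001 with DESeq2 and with its size factors in edgeR, -0.016 with upper quartile scaling, -0.062 with library size only and -0.003 with the minimum of 10 counts. Eprs was -0.01 and Vars -0.017 with library size only. With a library left out, Qars ran from -0.025 to 0.028, Cars2 from -0.26 to 0.046, Ears2 from -0.157 to 0.153, Fars2 from -0.224 to 0.029, Nars2 from -0.569 to 0.076, Tars2 from -0.02 to 0.02 and Gatc from -0.184 to 0.042. Over all genes tested, 54.2% of calls were higher in the main fit, 48.0% with upper quartile scaling and 35.1% with library size only, and the number of calls was 1491 higher and 1259 lower against 524 and 304 with all genes with at least 1 count.

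The labels number the replicates 1 and 2 in both groups but do not say that a number marks an experiment. The deviations of same-numbered libraries correlated by 0.029 over all genes tested, so the numbers were not taken as pairs. In a paired fit with the replicate block, 14 cytosolic genes were higher, the 11 of the main fit and Farsb, Kars and Sars, and Lars2 was called at a log2 fold change of 0.652 (adjusted p = 2.45e-08, against 2.45e-08 to 0.631 over its alternatives).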
